A study of Homo sapiens with 40 samples.

Results

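The enzymes that write, copy, erase and read DNA methylation were examined as 8 genes of the deposited count table: DNMT1, UHRF1, DNMT3A, DNMT3B, TET1, TET2, TET3 and MBD2. They were taken by name from the 62486 genes of that table through their Ensembl identifiers, and all 8 were matched. The series compared A549, an established human lung adenocarcinoma line, as control (CT), with SETDB1 knockout (KO) A549 cells made by CRISPR/Cas9 with guides cloned into the PX458 plasmid. SETDB1 encodes an enzyme that trimethylates lysine 9 of histone H3 (H3K9me3), which is found at silent chromatin. RNA-seq of total RNA had 3 libraries per genotype, and these 6 of the 40 samples were used. The sources used here do not say whether the knockout cells were 1 clone or a mixed pool, nor whether the libraries of a genotype came from separate cultures, so the p-values measure only the spread between these libraries.

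DNA methylation is placed on cytosines of CpG dinucleotides. DNMT3A and DNMT3B place new marks, while DNMT1 copies marks to the new strand after replication, brought to it by UHRF1, which binds hemimethylated CpGs and histone H3 carrying K9 methylation. The TET dioxygenases oxidise methylcytosine and so start its removal, and MBD2 binds methylated CpGs and joins the NuRD repressor complex. DNA methylation and H3K9me3 often mark the same silent repeats and genes, and SETDB1 and the DNA methyltransferases are known to act at shared targets.

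To show the DNA in front of these genes, the 250 bases before the outermost RefSeq start site are printed for DNMT1, the maintenance enzyme, and for TET1, whose transcript alone among the 8 was called higher in KO cells. Both are on GRCh38.p14 and are given 5′ to 3′ on the strand of the gene, with CpG dinucleotides in capitals. The DNMT1 window lies on the minus strand (chr19:10194954-10195203) and the TET1 window on the plus strand (chr10:68560087-68560336).
DNMT1: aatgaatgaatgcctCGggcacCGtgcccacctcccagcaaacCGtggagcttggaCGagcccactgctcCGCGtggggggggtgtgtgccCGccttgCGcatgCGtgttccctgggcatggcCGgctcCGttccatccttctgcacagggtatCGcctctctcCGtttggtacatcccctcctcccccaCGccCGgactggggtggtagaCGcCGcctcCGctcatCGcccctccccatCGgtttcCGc
TET1: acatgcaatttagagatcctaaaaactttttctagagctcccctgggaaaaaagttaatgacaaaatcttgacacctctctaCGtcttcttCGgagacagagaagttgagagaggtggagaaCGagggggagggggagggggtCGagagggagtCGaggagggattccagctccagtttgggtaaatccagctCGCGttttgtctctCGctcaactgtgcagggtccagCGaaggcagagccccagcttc

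The DNMT1 window held 21 CpGs and 66.8% G and C. The TET1 window held 9 CpGs and 51.6% G and C. Over the 35116 windows of the same length in the RefSeq table the median was 11 CpGs, and 69.8% of windows had fewer than DNMT1 against 45.9% for TET1. The 19 windows of the 8 genes, which have several start sites each in many cases, ranged from 3 CpGs (a start of DNMT3B) to 41 (a start of UHRF1). Neither of these starts is the outermost of its gene. The window set held no window before the outermost start of DNMT3B, so the value of 3 does not describe the DNA there.

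A loose form of the site of E2F factors, which drive genes of S phase, was searched on both strands as TTTNNCGC. It occurred in 5.92% of all windows and in 2 of the 19 windows of the 8 genes, both of them UHRF1. Of the 20 S phase genes described below, 16 had a window, and 8 of their 22 windows (36.4%), each of another gene, had a match. The UHRF1 matches are shown in stretches of 30 bases on the plus strand of GRCh38.p14, with the match in capitals. Stretches a and b precede the start at 4909501 (chr19:4909378-4909407, and chr19:4909471-4909500 with the match on the reverse strand), and stretch c precedes the start at 4910144 (chr19:4909973-4910002).
UHRF1 a: cccccaccctcTTTCTCGCttcccgccact
UHRF1 b: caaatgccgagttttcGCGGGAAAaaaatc
UHRF1 c: cccgagcccgaTTTCGCGCgccctgagttc

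These starts lie inside the span that RefSeq gives for UHRF1, so the stretches may be part of a longer transcript. A match is a description of letters. DNA methylation was not measured in the files used here, and the deposited peaks, which are on another build (hg19), were not set against these windows.

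The libraries held 18065062 to 48364919 counts. Levels are given as CPM, the count of a gene scaled by library size, with library sizes adjusted by TMM. The control libraries had 37.5, 39.6 and 38.7 CPM of SETDB1 itself and the KO libraries 23.4, 21.2 and 21.1 CPM, with -0.82 (SE 0.060) as the log2 fold change in edgeR. The transcript was thus still present at 56.8% of the control level. The epithelial keratin and adhesion genes KRT7, KRT8, KRT18, KRT19, EPCAM and CDH1 were detected in every library, with a summed level of 4460 to 4883 CPM in control and 10821 to 11625 CPM in KO libraries. Of 7 marker genes of leukocytes, fibroblasts and endothelium, 6 were matched; CD3E had no count in any library, PTPRC, CD68 and VWF had 2, 10 and 5 counts over all 6 libraries, and the summed level of the list was 3.37 to 3.70 CPM in control and 4.80 to 4.83 CPM in KO libraries, most of it COL1A1.

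Of the 8 genes, 7 were lower and 1, TET1, was higher in KO cells at a Benjamini-Hochberg adjusted p under 0.05 in edgeR's quasi-likelihood test. The test was run over 17767 genes, of which 62.8% were called, 30.0% as lower and 32.8% as higher, so a call by itself is common in these data. The 7 lower calls became 4 with scaling by library size only, and likewise 4 without control replicate 3 or without KO replicate 3. The changes were small. None of the 8 reached a 2-fold change (0 genes), and their median log2 fold change was -0.20, against 0.0038 for all genes tested. The median size of change, without its sign, was 0.34 on the log2 scale over all genes tested, and only DNMT3B, TET1 and TET3 exceeded it. In 6 of the 8 genes, 5 lower and 1 higher, no KO library overlapped the control range; over all genes tested the share was 65.8%, with 31.7% lower and 34.1% higher. In bulk libraries such as these, fewer cells that express a gene and less RNA per cell cannot be told apart.

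**Figure D1:**
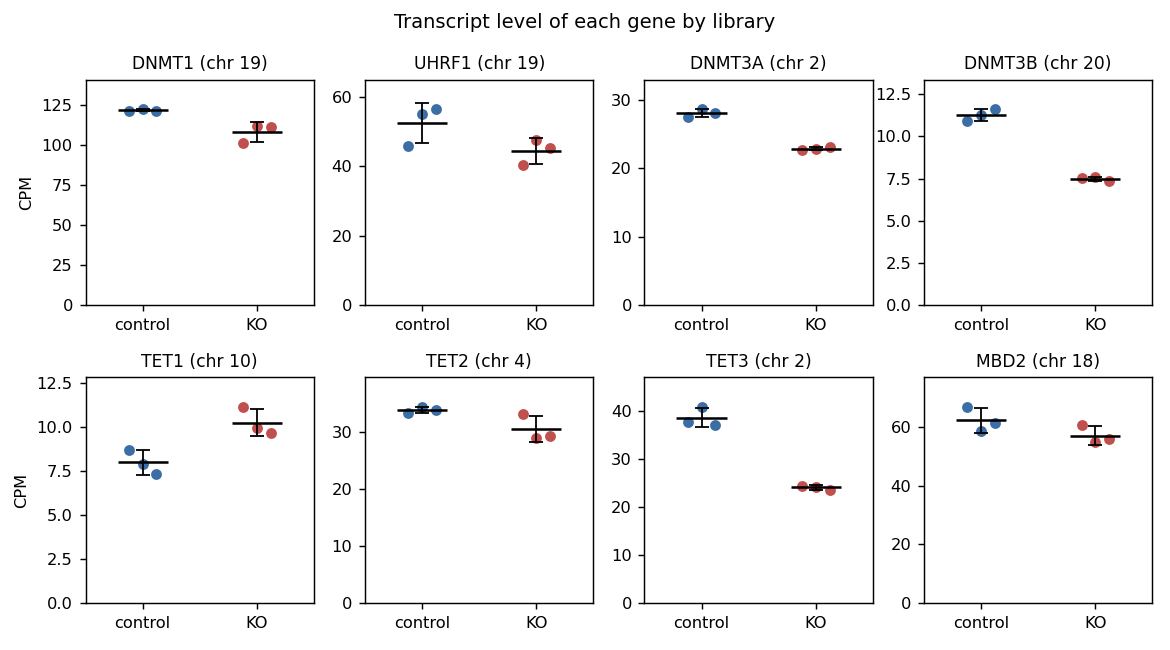
Level of each gene in CPM (vertical axes from 0) in the 3 control (blue) and 3 KO (red) RNA-seq libraries, with the mean (wide bar) and SD (whiskers). TET3 fell from 38.6 to 24.0 CPM and DNMT3B from 11.3 to 7.49 CPM with no overlap, TET1 is the gene whose KO points lie above its control points, and the points of UHRF1 and MBD2 overlap.

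The maintenance pair was slightly lower in KO cells. DNMT1, the maintenance methyltransferase, was measured at 121.6, 122.5 and 121.5 CPM in the control libraries and at 101.3, 112.2 and 111.4 CPM in the KO libraries. All KO libraries lay below all control libraries, and KO replicate 1 was the lowest. The mean fell by 11.1%, with an edgeR log2 fold change of -0.17 (95% interval -0.26 to -0.074, adjusted p 0.0023).

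UHRF1, which recruits DNMT1 to newly replicated DNA, was measured at 46.0, 55.1 and 56.5 CPM in control and at 40.4, 47.5 and 45.2 CPM in KO libraries. Control replicate 1 was low and lay between the KO libraries, so the genotypes overlapped. KO replicate 1 was likewise the lowest of the KO libraries, and each KO library lay below the control library of its number. The edgeR log2 fold change was -0.24 (95% interval -0.40 to -0.071, adjusted p 0.015). This call did not hold without control replicate 2 (adjusted p 0.060 in edgeR), without control replicate 3 (0.051), without KO replicate 1 (0.071) or without KO replicate 3 (0.062), nor with scaling by library size only (0.074). It was kept in the other 7 of 12 alternative fits. Among these, edgeR gave an adjusted p of 1.4e-06 without control replicate 1 and 9.2e-06 with a replicate block. The log2 ratio of UHRF1 to DNMT1 was -1.22 ± 0.16 (SD, n = 3) in control and -1.29 ± 0.045 in KO libraries, and these values overlapped.

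Genes of S phase, the part of the cell cycle in which maintenance methylation takes place, were lower too. Of 20 such genes, 16 were called lower and 1 higher, with a median of -0.39 on the log2 scale. Without KO replicate 1, 2 were higher. Over all genes tested, 30.0% were called lower and 32.8% higher. Their summed level was 2342 to 2458 CPM in control and 1722 to 1782 CPM in KO libraries. MCM6, a subunit of the replicative helicase on chromosome 2, fell from 119.7 ± 4.67 to 57.5 ± 1.88 CPM, and GINS2, of the same helicase complex, from 53.2 ± 2.65 to 33.4 ± 0.80 CPM (SD, n = 3 each). CCNE1, which encodes cyclin E1, rose from 23.6 ± 0.10 to 30.6 ± 1.69 CPM. Relative to the medians of their chromosomes, MCM6 was at -0.52, GINS2 (chromosome 16) at -0.75 and CCNE1 (chromosome 19) at 0.042. The part of the S phase genes' level in that of DNMT1 and UHRF1 was not tested.

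The de novo methyltransferases were both lower, by unequal amounts. DNMT3B was measured at 10.9, 11.3 and 11.6 CPM in control and at 7.55, 7.57 and 7.35 CPM in KO libraries. The libraries of each genotype lay close together, with a wide gap between genotypes. DNMT3B fell by 33.5%, a log2 fold change of -0.59 (95% interval -0.76 to -0.41, edgeR adjusted p 8.6e-07), and 12.7% of the genes tested had a lower value. This is the largest decrease among the 4 genes that place or maintain the mark.

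DNMT3A was measured at 27.4, 28.6 and 28.1 CPM in control and at 22.6, 22.8 and 23.0 CPM in KO libraries, again without overlap. It fell by 18.6%, a log2 fold change of -0.30 (95% interval -0.42 to -0.17, edgeR adjusted p 8.7e-05). The log2 ratio of DNMT3A to DNMT3B was 1.31 ± 0.036 in control and 1.60 ± 0.036 in KO libraries (SD, n = 3), and all KO libraries lay above all control libraries. The difference of 0.29 gave p = 0.10 in an exact two-sided permutation test, which is the smallest p that 3 libraries against 3 allow. Adjusted over the 5 pairs compared in this way, the exact test gave 0.125. Transcript lengths were not used, so such a ratio is not a ratio of transcript numbers; its change between genotypes does not depend on length where the isoforms stay the same.

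The TET genes moved in different directions. TET3 was measured at 37.7, 40.8 and 37.1 CPM in control and at 24.4, 24.2 and 23.6 CPM in KO libraries. This was the largest change among the 8 genes, a fall of 37.6% with a log2 fold change of -0.68 (95% interval -0.80 to -0.56, edgeR adjusted p 5.8e-11). In the RefSeq table the spans of BOLA3 and the pseudogene FNBP1P1 overlap that of TET3. BOLA3 had 10.4 CPM in control and 8.61 CPM in KO libraries, FNBP1P1 had 1.12 and 0.73 CPM, and whether reads were shared between them is not given in the sources used here.

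TET2 was measured at 33.3, 34.3 and 33.8 CPM in control and at 33.0, 28.9 and 29.2 CPM in KO libraries. KO replicate 1 lay just under the lowest control library, and the other KO libraries were lower. The log2 fold change was -0.16 (95% interval -0.28 to -0.037, edgeR adjusted p 0.022). This call did not hold in DESeq2 (adjusted p 0.058), with no expression filter (0.14 in edgeR) or with library size only (0.072 in edgeR). It was also lost in edgeR without control replicate 2 (adjusted p 0.061), control replicate 3 (0.056), KO replicate 2 (0.15, log2 fold change -0.12) or KO replicate 3 (0.093).

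TET1, which with DNMT3B (165 to 373 counts per library) was among the least counted of the 8 at 143 to 489 counts per library, was measured at 8.71, 7.89 and 7.32 CPM in control and at 11.1, 9.92 and 9.67 CPM in KO libraries. All KO libraries lay above all control libraries. The mean was 28.5% higher, with a log2 fold change of 0.36 (95% interval 0.17 to 0.55, edgeR adjusted p 0.0014). Over its 12 alternative fits the log2 fold change ranged from 0.29 to 0.43, and the call was kept in each of them.

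Within libraries, the log2 ratio of TET1 to TET2 went from -2.09 ± 0.14 to -1.57 ± 0.025, that of TET1 to TET3 from -2.27 ± 0.14 to -1.23 ± 0.088 and that of TET2 to TET3 from -0.19 ± 0.059 to 0.33 ± 0.091 (control to KO, SD, n = 3). None of these 3 ratios overlapped between genotypes, and each gave an exact permutation p of 0.10 (0.125 adjusted over the 5 pairs). The shift of TET1 against TET3, 1.04 on the log2 scale, was the largest of the 5. The position of TET3 on chromosome 2 bears on these ratios, as described below.

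**Figure D2:**
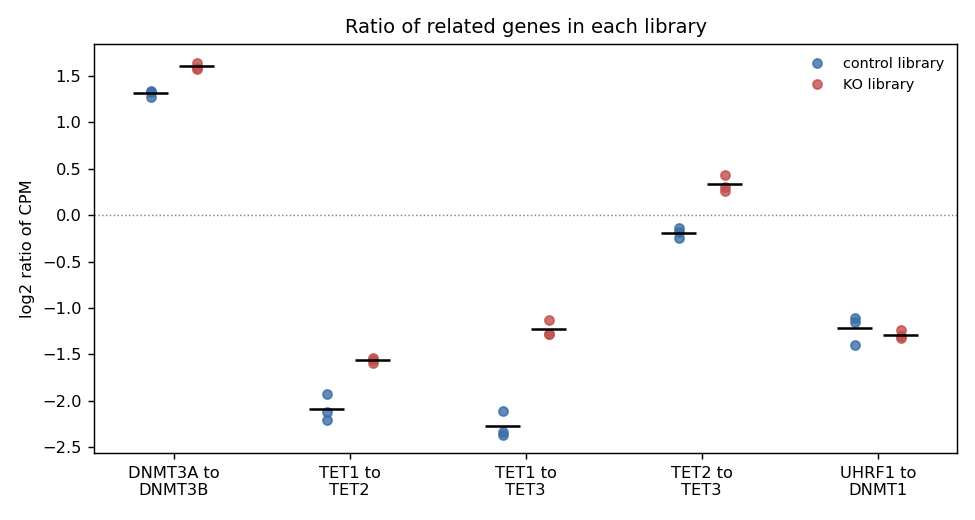
Log2 ratio of CPM of related genes (vertical axis) within each control (blue) and KO (red) library; bars are means of 3 libraries. The KO points lie above the control points in the first 4 pairs, with the widest gap for TET1 to TET3 (means -2.27 and -1.23), and overlap for UHRF1 to DNMT1.

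The reader of the mark, MBD2, was measured at 66.9, 58.6 and 61.5 CPM in control and at 60.7, 54.8 and 55.9 CPM in KO libraries. KO replicate 1 lay above control replicate 2, so the genotypes overlapped. The log2 fold change was -0.13 (95% interval -0.24 to -0.019, edgeR adjusted p 0.039), the smallest of the 8. The call was lost in DESeq2 (adjusted p 0.083), with no expression filter (0.21 in edgeR) and with library size only (0.10 in edgeR). In edgeR it was also lost without control replicate 1 (adjusted p 0.21, log2 fold change -0.077), control replicate 3 (0.058), KO replicate 2 (0.19) or KO replicate 3 (0.12).

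Because whole chromosomes differed in level between the genotypes, each gene was set against the other tested genes of its chromosome. DNMT3A and TET3 lie on chromosome 2, where the median over the other genes was -0.54 on the log2 scale and of whose 1049 tested genes 72.3% were called lower. Against that median the pair parted. DNMT3A was 0.24 above it, higher than 69.4% of the other genes of the chromosome, and TET3 was 0.14 below it, with 37.0% of the others lower still. Measured against the 50 nearest genes, DNMT3A stood 0.32 above (neighbour median -0.61) and TET3 was at -0.24 (neighbour median -0.43). With each gene's log2 CPM centred on its own mean, DNMT3A relative to chromosome 2 was -0.18, -0.075 and -0.11 in control and 0.086, 0.12 and 0.13 in KO libraries, and TET3 was 0.018, 0.17 and 0.028 in control and -0.072, -0.064 and -0.10 in KO libraries. Neither gene overlapped between genotypes on this scale.

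DNMT1 and UHRF1 lie on chromosome 19, whose median moved the other way, at 0.34, so their distance from their chromosome was larger than their fold change. DNMT1 stood at -0.51 and UHRF1 at -0.58 relative to it, and 14.0% and 11.1% of the other 1136 genes of the chromosome were lower still. Chromosome 19 carries many zinc finger genes. With genes named ZNF or ZFP left out, the median of the other 863 was 0.20, and DNMT1 and UHRF1 stood at -0.37 and -0.44. When the reference was instead the median level of the chromosome's genes in each library, the differences were -0.99 and -1.06.

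DNMT3B on chromosome 20 and TET1 on chromosome 10 lie where the medians were near 0 (0.026 and -0.031). They stood at -0.61 and 0.39 relative to these, lower than all but 10.0% and higher than 79.2% of the other genes of their chromosomes. TET2 on chromosome 4 was at -0.19 and MBD2 on chromosome 18 at -0.12, or -0.0044 against the 50 nearest genes in the case of MBD2. In all, 6 of the 8 genes were below the median of their chromosome and 2, DNMT3A and TET1, above it. In the exact two-sided permutation test of the level of each gene relative to its chromosome's median level in each library, 7 genes gave p = 0.10, the smallest possible here, and MBD2 gave 0.20 (0.114 and 0.20 adjusted over the 8 genes). The chromosome's median level can itself differ between genotypes, and this enters the test. UHRF1, whose CPM overlapped between genotypes, differed by -1.06 on this scale against a fold change of -0.24. The exact p-values thus describe gene and chromosome together and are not evidence about the gene alone.

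Subtracting the chromosome medians also changed the ratios within families. The difference between DNMT3A and DNMT3B grew from 0.29 to 0.86. That between TET1 and TET3 went from 1.04 to 0.53, and that between TET2 and TET3 from 0.52 to -0.056, that is, to a slightly opposite direction. TET1 against TET2, neither of which lies on chromosome 2, went from 0.52 to 0.58. Whether the shift of chromosome 2 is one of DNA copies or of transcription was not tested.

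**Figure D3:**
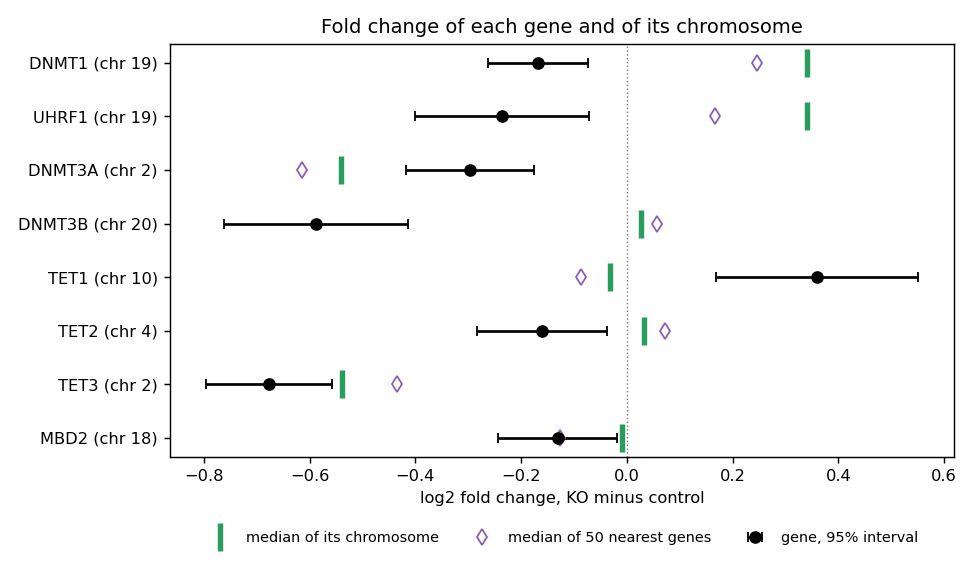
Log2 fold change, KO minus control (horizontal axis), of each of the 8 genes with its 95% interval (black), beside the median of the other tested genes of its chromosome (green bar) and of its 50 nearest tested genes (open diamond). DNMT3A lies to the right of the chromosome 2 median (-0.54), TET3 to its left, and DNMT1 and UHRF1 lie well to the left of the chromosome 19 median (0.34).

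The other genes of the pathway were then described in 6 lists. Of 62 genes, 59 were tested, 32 were called lower and 18 higher, with a median log2 fold change of -0.14. Over all genes tested, 30.0% were called lower and 32.8% higher, with a median of 0.0038, and the counts of each list below are to be read beside these shares. The direction differed between lists, as shown in the plot of fold changes by list.

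Cofactors of the methyltransferases were lower or not called. Of 10 tested, 8 were lower and 0 higher, with a median of -0.39. CDCA7, which partners the remodeller HELLS in keeping repeats methylated, fell from 70.1 ± 3.05 to 23.7 ± 1.72 CPM (SD, n = 3). On the log2 scale this was a change of -1.55 (standard error 0.058), and edgeR gave it an adjusted p of 5.2e-19. CDCA7 is on chromosome 2 and was still 1.01 below the median of that chromosome. HELLS fell from 152.4 ± 1.81 to 105.8 ± 5.87 CPM, or by 0.53 on the log2 scale. DNMT3L, the inactive partner of the de novo enzymes in germ cells, and DPPA3 had no count in any library.

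Partners of the TET proteins included the 2 largest increases of the 6 lists. CXXC4, a CXXC domain protein known to bind TET2 and lower its protein level, rose from 4.13 ± 0.86 to 10.2 ± 0.27 CPM, or by 1.33 on the log2 scale (standard error 0.11), for which edgeR gave an adjusted p of 4.2e-11. CXXC5, its close relative, rose from 16.4 ± 1.11 to 38.3 ± 0.83 CPM, or by 1.21 (standard error 0.063), and edgeR gave an adjusted p of 1.0e-15. IDH1, the cytosolic enzyme that makes the TET cosubstrate 2-oxoglutarate, fell by 0.49 on the log2 scale. It lies on chromosome 2, where its change was 0.053 above the median. Over the list of 8, 3 were higher and 4 lower, with a median of -0.12.

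Genes of active demethylation and base excision repair were mixed, with 4 higher and 6 lower of 12 tested and a median of -0.051. Without KO replicate 2, 2 were higher. TDG, the glycosylase that excises oxidised methylcytosine, rose from 32.6 ± 2.50 to 38.2 ± 1.14 CPM, and SMUG1, another glycosylase, from 21.9 ± 0.34 to 29.1 ± 0.37 CPM. Both lie on chromosome 12, whose median was 0.37, and relative to it TDG was at -0.15 and SMUG1 at 0.043. GADD45B, a stress-induced gene tied to demethylation, fell from 18.1 ± 0.36 to 8.99 ± 1.13 CPM (log2 fold change -0.98), and NEIL2, a repair glycosylase, from 21.8 ± 1.03 to 14.6 ± 1.38 CPM.

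Among 8 other methyl-CpG binding or MBD family genes, 5 were higher and 3 lower, with a median of 0.16. MBD6, an MBD family protein, rose from 8.16 ± 0.43 to 16.5 ± 1.14 CPM. MBD6 lies on chromosome 12 and was 0.65 above the median of that chromosome. MBD3, which takes the place of MBD2 in the alternative form of NuRD, had 35.7 ± 5.53 CPM in control and 46.6 ± 4.20 CPM in KO libraries, a call that did not hold in edgeR without KO replicate 2 (adjusted p 0.070) or KO replicate 3 (0.074). MBD3 lies on chromosome 19 and was only 0.058 above the median there. ZBTB38, a zinc finger reader of methylated DNA, fell from 324.2 ± 9.75 to 229.4 ± 5.29 CPM. MBD5 fell by 0.27 on the log2 scale, but lies on chromosome 2 and was 0.27 above the median there. Its call was lost without KO replicate 3, where the change was -0.20 (edgeR adjusted p 0.055). Without KO replicate 3 the list had 3 higher and 1 lower, and without KO replicate 2 it had 3 higher.

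NuRD subunits had 3 higher and 4 lower of 11, with a median of 0.052. CHD3, a remodelling ATPase of the complex, rose from 186.4 ± 5.78 to 307.8 ± 9.71 CPM (log2 fold change 0.72, edgeR adjusted p 1.1e-14). CHD4, its paralog, had a log2 fold change of 0.19 whose call was lost in DESeq2 (adjusted p 0.11), with upper quartile scaling (0.086 in edgeR), and in edgeR without control replicate 3 (adjusted p 0.18) or KO replicate 1, 2 or 3 (0.069, 0.054 and 0.070). MTA3, on chromosome 2, and the deacetylase HDAC2 fell by 0.44 and 0.30 on the log2 scale. MTA3 was 0.10 above the median of its chromosome, whereas HDAC2, on chromosome 6, was at -0.25 relative to its own.

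In the methyl donor cycle, which supplies S-adenosylmethionine, 7 of 10 genes were lower and 3 higher, with a median of -0.26. MAT2A, which makes S-adenosylmethionine, fell from 183.4 ± 5.81 to 131.7 ± 4.82 CPM, and AHCY, which removes the inhibitory product S-adenosylhomocysteine, from 165.3 ± 6.10 to 119.0 ± 2.96 CPM. MAT2A lies on chromosome 2 and was 0.059 above its median, whereas AHCY lies on chromosome 20 and was at -0.50 relative to its own. SHMT1, a serine hydroxymethyltransferase, rose from 63.6 ± 2.06 to 71.2 ± 2.84 CPM, or by 0.16 on the log2 scale.

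**Figure D4:**
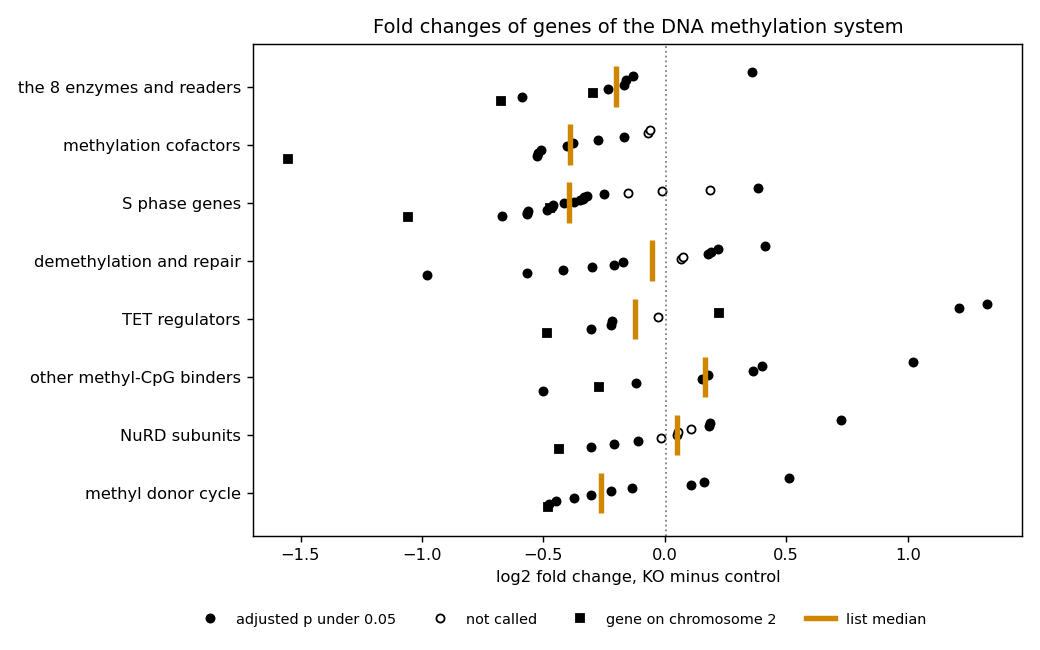
Log2 fold change, KO minus control (horizontal axis), of every tested gene of the 8 genes and of each list (rows); filled points have an adjusted p under 0.05, squares lie on chromosome 2, orange bars are list medians and the dotted line is the median of all genes tested. Cofactors (median -0.39) and S phase genes (median -0.39) lie mostly to the left. The other methyl-CpG binding or MBD family genes (median 0.16) lie mostly to the right.

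The profiles of the 8 genes over the 6 libraries were compared with those of 10994 genes of at least 5 CPM, by the Euclidean distance between log2 CPM values centred per gene. The 2 nearest genes were MICAL1 (distance 0.039) and UBB (0.049) for DNMT1, NXN (0.042) and PTGES2 (0.060) for UHRF1, and TSR1 (0.020) and DNAJA3 (0.030) for DNMT3A. They were ALDH1B1 (0.048) and NUS1 (0.049) for DNMT3B, DENND4A (0.085) and NMNAT1 (0.088) for TET1, and MAPKBP1 (0.037) and ZC3HAV1L (0.060) for TET2. TET3 was nearest to RRP1B (0.035) and PLCXD2 (0.046), and MBD2 to TMED5 (0.038) and TENT2 (0.043). None of the nearest genes was another of the 8.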

How the data were processed

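Whole-number counts per gene from stranded total RNA libraries were used as deposited. The submitters' processing notes name hg19, STAR 2.6.1c and edgeR 3.30.0 for the submission without a role; how reads were assigned to genes and whether strand was used is not given in the sources used here. Counts for 6 libraries (0 columns unmapped) were fitted in R 4.3.3 with edgeR 4.0.16 (filterByExpr, TMM, and a robust quasi-likelihood test of genotype with no covariate), with p-values adjusted by Benjamini-Hochberg over 17767 genes at 0.05. CPM used TMM-scaled library sizes, and log2 CPM a prior count of 0.5. Symbols matched 93.8% of identifiers. Chromosome and gene order came from RefSeq (GRCh38.p14), which placed 87.9% of tested genes. No library pair of a genotype agreed within sampling noise. The fit was tested on counts simulated for 17767 genes, of which 200 were changed. Among changed genes that passed the filter, 90.6% of 2-fold and 69.5% of 1.5-fold changes were recovered, and 6.13% of the calls were false. The simulation changed far fewer genes than the 62.8% called in the data, so its rates may not carry over.

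The 8 genes and the lists were chosen with earlier results of these data known. SETDB1 and the 8 genes were always named, and of each list up to 2 genes each way with the largest change, an adjusted p under 0.05 and a mean of at least 5 CPM; 2 genes so picked are not reported here. Alternatives were other scalings and filters, DESeq2 1.42.0, a replicate block, each library left out, and other chromosome references; the zinc finger, centred and level references and the ratios minus chromosome medians were chosen after seeing the data. Exact tests used scipy 1.17.1. Peak, domain and compartment files were not used here.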

Additional observations from a re-analysis of the deposited data

How the results depend on the processing

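Of 793 values under alternatives, 744 held, 20 moved, 28 lost their call and 1 reversed; the causes were not tested beyond what a setting's own construction shows. DNMT1, DNMT3A, DNMT3B, TET1 and TET3 kept their call in all 12 alternative fits, and UHRF1, TET2 and MBD2 lost it in 5, 7 and 7. The number of the 8 called lower went from 7 to 4 with library size only, and to 4 to 6 when each library was left out. Of 25 list genes picked by the naming rule, 22 kept their call in every alternative, the exceptions being MBD3, MBD5 and CHD4. The median of all genes moved by 0.031 with library size only and by -0.035 with upper quartile scaling.

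Relative to the 50 nearest genes, DNMT1 was at -0.41, UHRF1 at -0.40, DNMT3A at 0.32, TET3 at -0.24 and MBD2 at -0.0044. Relative to the median level of the chromosome, DNMT1 was at -0.99, UHRF1 at -1.06 and TET2 at -0.30. Without zinc finger genes in the reference, DNMT1 was at -0.37 and UHRF1 at -0.44. Minus chromosome medians, DNMT3A to DNMT3B was 0.86, TET1 to TET3 was 0.53 and TET2 to TET3 reversed to -0.056.

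Over all genes tested, the deviations of same-numbered libraries were weakly correlated (0.093, 0.051 and 0.039). A correlation over all genes cannot show whether single genes vary with the replicate number. Adding a replicate block gave 11655 called genes against 11157, with the same 7 lower and 1 higher among the 8. The edgeR adjusted p with the block was 9.2e-06 for UHRF1 (0.015 without it) and 0.0057 for MBD2 (0.039 without it). It was also lower with the block for each of the other genes of the 8. With 3 libraries per genotype no exact test could pass 0.05, and low counts limit TET1 (143 to 489 per library) and DNMT3B (165 to 373).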

Other observations

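The listed pathway genes were also counted by chromosome, on 3 chromosomes chosen after the values were seen. Among all tested genes of chromosomes 2, 12 and 19, 72.3%, 8.43% and 11.2% were called lower. The shares called higher on these chromosomes were not counted, so the counts of higher genes below have no such share beside them. Of the 6 listed pathway genes on chromosome 2 (CDCA7, IDH1, D2HGDH, MBD5, MTA3 and MAT2A), 5 were called lower and 1, D2HGDH, higher; against the median of the chromosome, 5 were above it and 1, CDCA7, below. All 5 on chromosome 12 (TDG, SMUG1, MBD6, CHD4 and SHMT2) were called higher, of which 2 were above the chromosome's median and 3 below it. That median was 0.37, and the CHD4 call was lost in 6 of 12 alternative fits. D2HGDH, which clears D-2-hydroxyglutarate, had a log2 fold change of 0.22 and stood 0.76 above the median of chromosome 2. The 5 on chromosome 19 (LIG1, XRCC1, GADD45B, MBD3 and GATAD2A) were mixed, with 2 higher, 2 lower and 1 not called, although the median of that chromosome was 0.34; 1 was above that median and 4 below it. The lowest of these, GADD45B, stood at -1.32 relative to it.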
